A study of Caenorhabditis elegans with 9 samples.

Results

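Larvae of Caenorhabditis elegans that lack either enzyme of O-GlcNAc cycling were set against the wild type as a single comparison: the average of the ogt-1 and oga-1 group means minus the wild-type mean. The comparison used all 9 arrays of the series, 6 from mutants and 3 from the wild type. The mutant groups were ogt-1(ok430), a loss of the O-GlcNAc transferase, and oga-1(ok1207), a loss of the O-GlcNAcase, with 3 arrays each. Each array carried amplified RNA of 20 fed, hand-picked larvae in the last stage before the adult (L4), staged by the vulva. The labels call the arrays biological replicates without saying whether they came from separate cultures, so p-values measure the spread between these samples. All values are log2 probe set signals as deposited. Whole larvae were measured, so more cells of a type and more RNA per cell cannot be told apart.

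O-GlcNAc is a single sugar that is placed on serine and threonine residues of proteins in the nucleus and cytoplasm. The transferase OGT-1 takes it from a nucleotide sugar made by the hexosamine pathway and attaches it to proteins, and the O-GlcNAcase OGA-1 takes it off again. The mutants therefore block opposite steps: proteins stay unmodified without the transferase and keep the sugar without the O-GlcNAcase. What they share is that the sugar can no longer be cycled. The comparison asks which transcripts respond alike to a block at either step.

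The arrays had the same mean signal, 5.91, and medians of 5.21 to 5.30. Precision is limited by the number of arrays, and the average change had a median standard error of 0.10. The ogt-1 transcript read 6.97, 7.01 and 7.12 in ogt-1 mutants and 7.85, 8.08 and 7.88 in oga-1 mutants, against 7.96, 7.91 and 7.83 in the wild type. By this probe set it was low in its own mutant alone, and its average change of -0.41 (limma adjusted p = 0.014) lost the call without wild-type array 1 or 2. The dimmer ogt-1 probe set differed by -0.42 in ogt-1 mutants, which was called, and by -0.19 in oga-1 mutants, which was not. In that probe set the mutants did not differ past the test (limma adjusted p = 0.096). The oga-1 transcript read 4.87, 5.09 and 4.84 in oga-1 mutants, against 5.38, 5.30 and 5.08 in the wild type, a change of -0.32 that was not called (limma adjusted p = 0.22). Its dimmer probe sets differed by -0.25 and -0.28 in oga-1 mutants and were not called. Where these probe sets lie relative to the deletions was not examined.

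The wild-type arrays also differed from the mutant arrays in a measure of RNA integrity. The 3' minus 5' signal of the actin control probe sets, which grows as the 5' end of a transcript is lost in degradation or amplification, was 4.14, 3.90 and 4.07 in ogt-1 mutants and 4.31, 4.39 and 3.90 in oga-1 mutants, against 4.73, 4.82 and 4.75 in the wild type. The groups did not overlap, with a mean of 4.12 ± 0.20 (SD, n = 6) in mutants and 4.77 ± 0.05 (SD, n = 3) in wild-type arrays (exact permutation test, two-sided p = 0.0238, the smallest that 6 against 3 arrays can give). The same measure for Gapdh averaged 2.99 ± 0.19 (SD, n = 6) in mutants and 3.24 ± 0.10 (SD, n = 3) in wild-type arrays (exact permutation test, two-sided p = 0.0476). This difference runs with every mutant against wild-type contrast below, and its part in them was not tested.

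**Figure D1:**
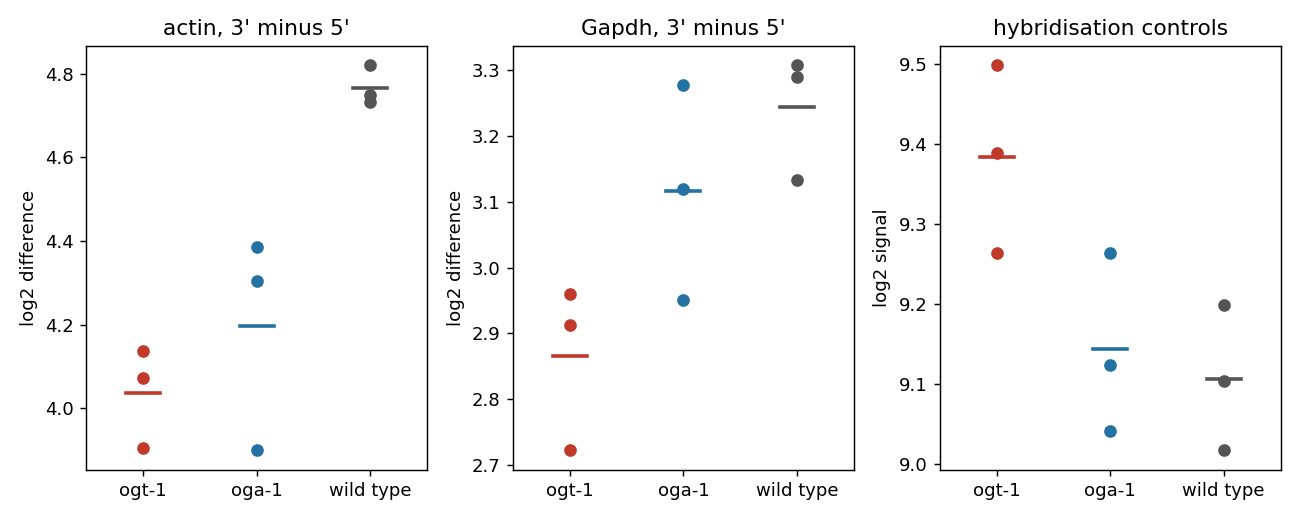
Control probe sets on each array, by strain: 3' minus 5' log2 difference for actin (left) and Gapdh (middle), and mean log2 signal of 18 hybridisation control probe sets (right). Points are arrays and bars are means of 3; for actin all 6 mutant arrays lie below all 3 wild-type arrays.

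Averaged over both mutants, 1088 of 22548 probe sets were called at a limma adjusted p under 0.05, which is 4.83%. Of these, 700 were higher (3.1%) and 388 lower (1.72%), and 92 were at least 2-fold higher while 18 were at least 2-fold lower. By gene, taking the probe set of highest mean signal, 889 of 17118 were called (5.19%), 574 higher (3.35%) and 315 lower (1.84%). The counts leaned on the wild-type arrays: without wild-type array 1 there were 339 higher and 134 lower probe sets, and without array 2 there were 272 and 94.

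Most of these averages were carried by the ogt-1 mutants. Of the 1088 probe sets, 819 also differed between the mutants, 75.3%, against 23.9% of all probe sets in that contrast (5381 of 22548). The size of that difference uses no wild-type array, but its p-value rests on a spread estimated over all 9 arrays. Set against the wild type on their own, ogt-1 mutants had 3891 called probe sets (17.3%) and oga-1 mutants had 58 (0.257%). These comparisons share the wild-type arrays, so their values are given side by side and their overlap is not used. A change was called alike where it was called in the average, ran in the same direction in both mutants, and was at least 50% as large in one mutant as in the other. By this rule 263 probe sets (1.17%) changed alike, 149 higher (0.661%) and 114 lower (0.506%). Of the remaining 825, 811 had the larger change in ogt-1 mutants and 14 in oga-1 mutants.

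**Figure D2:**
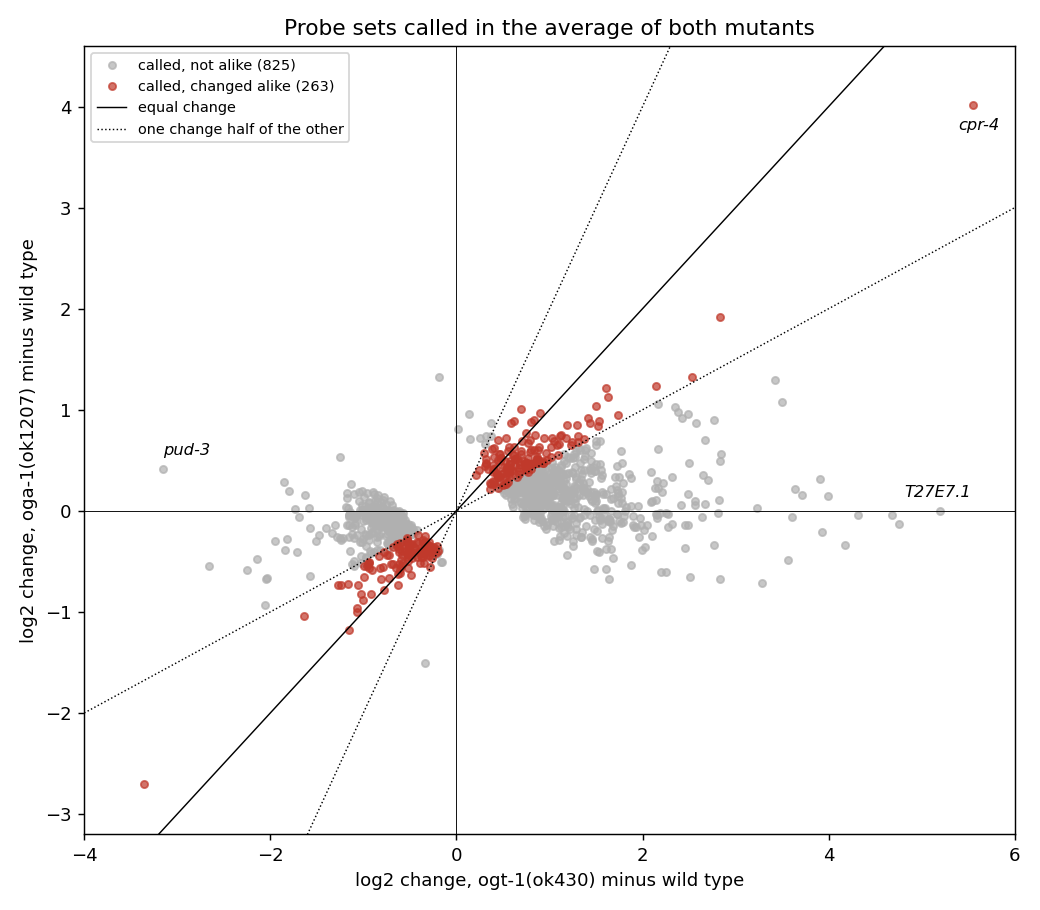
Log2 change in ogt-1 mutants (horizontal) and in oga-1 mutants (vertical), each minus the wild type, for the 1088 probe sets called in the average. The 263 red points changed alike and lie between the dotted lines, where one change is 50% of the other; most of the 825 grey points spread along the horizontal axis. Both axes use the same wild-type arrays.

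Among genes, 211 changed alike (1.23%), 124 higher (0.724%) and 87 lower (0.508%). For 186 of them (1.09%), 113 higher and 73 lower, all 6 mutant arrays also lay on one side of all 3 wild-type arrays, a separation that 4.73% of all genes showed. The largest shared rises and falls below are ranked among these 186. The average rise of these 113 genes ran from 0.28 to 4.78 with a median of 0.57, and the average fall of the 73 from 0.29 to 1.16 in size with a median of 0.44. The change was larger in ogt-1 mutants for 134 of the 186 and larger in oga-1 mutants for 52. On their own, ogt-1 mutants had 169 of the 186 called (18.4% of all genes) and oga-1 mutants 15 (0.269% of all genes); the rule used the same arrays, so nothing is read from these counts. At the limit of the rule, T19D12.4 differed by 0.52 in ogt-1 and 0.26 in oga-1 mutants and lay just inside, and fmo-5 by -1.03 and -0.51 and lay just outside.

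The largest shared rise was that of cpr-4 on chromosome V, which encodes a cathepsin B-like cysteine protease. It read 12.31, 12.97 and 12.67 in ogt-1 mutants and 11.08, 11.06 and 11.22 in oga-1 mutants, against 7.06, 7.07 and 7.18 in the wild type. Every mutant array was far above every wild-type array. The rise was 46.8-fold in ogt-1 and 16.2-fold in oga-1 mutants, and 27.5-fold on average (log2 change 4.78, SE 0.12, limma adjusted p = 1.6e-09). It passed the test in oga-1 mutants on their own (limma adjusted p = 5.1e-08), and it was higher in ogt-1 than in oga-1 mutants by 1.53 (limma adjusted p = 2.3e-05).

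Single genes for other hydrolases were also higher, and were taken from different lists or from none. The acid ceramidase gene asah-1, whose product cleaves ceramide, read 9.96, 10.53 and 10.60 in ogt-1 mutants and 9.75, 9.90 and 9.93 in oga-1 mutants, against 8.52, 8.62 and 9.04 in the wild type, an average rise of 1.38 (limma adjusted p = 0.00042). The serine carboxypeptidase gene ctsa-4.1, of the cathepsin A family, read 7.91, 7.69 and 7.71 in ogt-1 and 8.13, 7.74 and 7.65 in oga-1 mutants, against 6.79, 6.99 and 6.84 in the wild type. Its rises of 0.90 and 0.97 passed the test in each mutant, and the mutants differed by -0.07 with a 95% interval of -0.34 to 0.21. The aspartyl protease gene asp-8 rose by 1.07 on average (limma adjusted p = 0.0019) and asp-3, of the cathepsin D family, by 0.61 (limma adjusted p = 0.002). The lysosomal lipase gene lipl-1 rose by 1.21 (limma adjusted p = 0.025), but its call was lost without wild-type array 1 or 2, oga-1 array 2 or ogt-1 array 3.

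In the list of lysosomal proteases, autophagy genes and subunits of the vacuolar proton pump, 10 of 79 genes rose and 1 fell, 13.9% against 5.19% of all genes, and the median change was 0.02 against -0.02. All 11 were proteases: among the 26 proteases of the list 10 rose and 1 fell, with a median of 0.33. None of the 19 proton pump genes and none of the 34 others was called by limma, where 0 and 5 were higher and 3 and 3 lower at an unadjusted p under 0.05. The 6 proteases that rose alike were cpr-4, asp-8, asp-3, the cathepsin B-like cpr-5 (0.57), the cathepsin Z-like cpz-1 (0.51) and asp-12. In asp-12 the average of 2.38 (limma adjusted p = 0.046) hid an array that did not follow: oga-1 mutants read 9.76, 9.22 and 6.25, against 6.66, 6.31 and 6.50 in the wild type. The other 4 rises, cpr-1, cpr-9, asp-7 and asp-14, were not alike, and asp-17 fell alike by 0.42. Without wild-type array 1 or 2 the list had 6 rises and no fall. The division of the list into proteases and the rest was made after its values were seen.

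**Figure D3:**
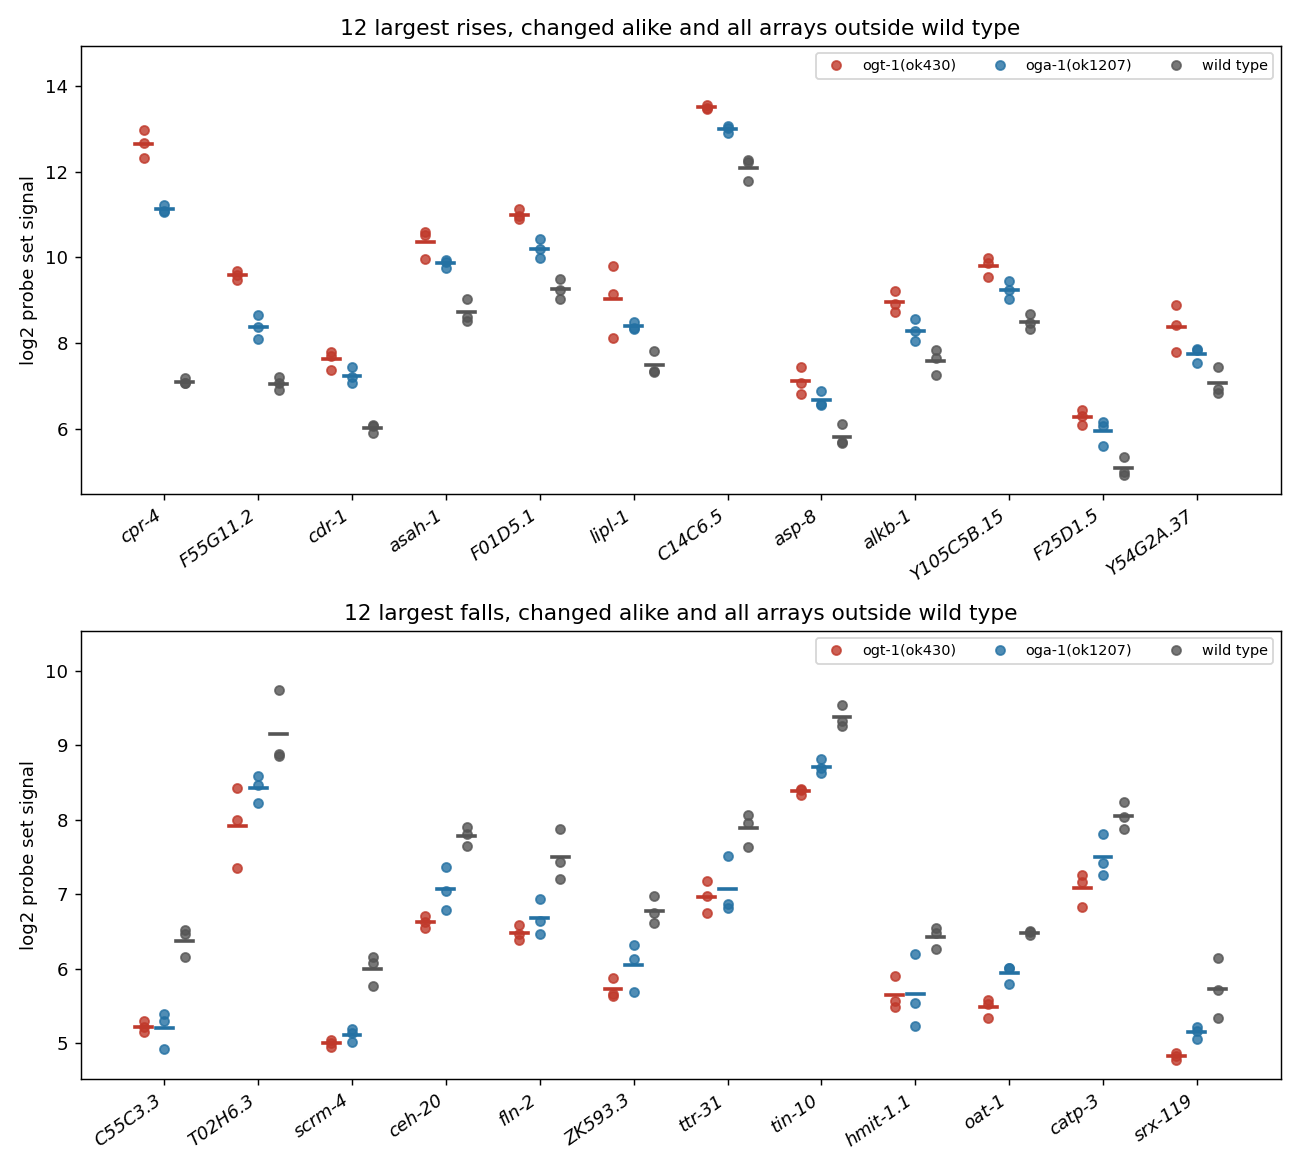
Log2 signal on each array for the 12 largest rises (top) and 12 largest falls (bottom) among the 186 genes changed alike with all mutant arrays outside the wild type, ordered by average change. Points are arrays and bars are means of 3; cpr-4 has the widest gap, with mutant arrays at 11.06 to 12.97 and wild-type arrays at 7.06 to 7.18.

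The other genes among the 12 largest rises of the 186 had varied or unstated roles. The cadmium-responsive gene cdr-1 read 7.79, 7.69 and 7.38 in ogt-1 mutants and 7.44, 7.06 and 7.20 in oga-1 mutants, against 6.06, 6.09 and 5.90 in the wild type. Its average rise was 1.41 (SE 0.11, limma adjusted p = 5.1e-05), with 1.60 in ogt-1 and 1.22 in oga-1 mutants, each past the test. The gene F55G11.2, in the list of immune effectors, rose by 1.93, with 2.53 in ogt-1 and 1.32 in oga-1 mutants. The AlkB-family gene alkb-1 rose by 1.04. Its dimmer probe set rose by 0.58 on average but not alike, with 0.95 in ogt-1 and 0.22 in oga-1 mutants. The other rises were F01D5.1 (1.34), C14C6.5 (1.17), Y105C5B.15 (1.02), F25D1.5 (1.02) and Y54G2A.37 (0.99), and the last lost its call without wild-type array 1 or 2. Close to the limit of the rule, mbug-1 rose by 2.17 in ogt-1 and 1.06 in oga-1 mutants, each past the test, but was not alike.

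Among genes with all mutant arrays outside the wild type, the largest shared fall was that of C55C3.3 on chromosome IV. It read 5.29, 5.22 and 5.15 in ogt-1 mutants and 5.29, 4.92 and 5.39 in oga-1 mutants, against 6.46, 6.52 and 6.15 in the wild type. All 6 mutant arrays lay below the wild-type arrays: ogt-1 mutants changed by -1.16 and oga-1 mutants by -1.17 (average: limma adjusted p = 0.00024), and the mutants differed by 0.02 with a 95% interval of -0.27 to 0.31. The scramblase-family gene scrm-4, whose relatives move phospholipids across membranes, read between 4.95 and 5.04 in ogt-1 mutants and 5.19, 5.01 and 5.13 in oga-1 mutants, against 6.08, 5.77 and 6.15 in the wild type. Its fall averaged 0.95 in size (limma adjusted p = 0.00024) and passed the test in each mutant.

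Among the other falls were ceh-20, a homeodomain factor of the PBX family (-0.94), and tin-10, a small Tim protein of mitochondrial import (-0.82). The organic anion transporter gene oat-1 fell by 0.77, and its other probe sets differed by -0.60, which was called, and -0.15, which was not. The filamin gene fln-2, for an actin cross-linking protein, fell by 0.93, but its 3 other, dimmer probe sets differed by -0.27, -0.01 and -0.08 and were not called. ZK593.3 (-0.89) and the chemoreceptor gene srx-119 (-0.75) completed the falls that kept the call without any 1 array. Those of ttr-31 (-0.87), catp-3 (-0.75), T02H6.3 (-0.99) and the myo-inositol transporter gene hmit-1.1 (-0.78) lost it without wild-type array 2, all of these except catp-3 also without array 1, and T02H6.3 and hmit-1.1 without any of 6 arrays. Of the 24 largest shared rises and falls, 18 kept the call without any 1 array.

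A larger fall was seen in a probe set that the annotation gives to several genes and that is therefore not named. The probe set read 4.37, 4.46 and 4.46 in ogt-1 mutants and 5.01, 5.06 and 5.19 in oga-1 mutants, against 7.93, 7.64 and 7.81 in the wild type, an average change of -3.03 (limma adjusted p = 2.5e-09). It was chosen after its values were seen.

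Smaller changes alike were seen in single members of other lists, whose shares of called genes were often near the 5.19% of all genes. Of 91 chromatin modifiers 3 rose and 2 fell (5.49%), and of 59 RNA polymerase II, TAF and Mediator genes 1 rose and 2 fell (5.08%). Of 78 splicing and RNA-binding factors 4 rose and 3 fell (8.97%), with 2 rises left without wild-type array 1 or 2. Chromatin modifiers kept 1 rise without array 1 and had no call without array 2. The centromeric histone gene hcp-3, which marks where the kinetochore forms, read 10.38, 10.29 and 10.45 in ogt-1 and 10.45, 10.14 and 9.89 in oga-1 mutants, against 9.57, 9.49 and 9.25 in the wild type, a rise of 0.83 (limma adjusted p = 0.0025). The linker histone gene hil-4 rose by 0.57 and him-5, needed for crossovers on the X chromosome in meiosis, by 0.94, both lost without wild-type array 1 or 2. The TFIID subunit gene taf-6.1 rose by 0.47 in ogt-1 and 0.56 in oga-1 mutants, past the test in each. The RNA-handling genes ddx-10 (0.70) and hrpf-1 (0.61) rose. The synMuv gene lin-15A, which restrains vulval fates, read 6.56, 6.66 and 6.38 in ogt-1 and 6.72, 6.45 and 6.42 in oga-1 mutants, against 7.27, 7.07 and 7.10 in the wild type. Its average fell by 0.61 (limma adjusted p = 0.0043), and the mutants differed by 0.01 with a 95% interval of -0.24 to 0.25. The AMP-activated kinase subunit gene aak-2, named after its values were seen, fell by 0.41.

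Some members of signalling and lipid lists also changed alike. Of 48 lipase, lipid-binding and lipid droplet genes 4 rose and 4 fell (16.7%, against 5.19% of all genes). The rises of lipl-1 and lips-10 and the fall of lips-12 (-0.45) were alike, and lips-12 lost its call without any of 7 arrays. Without wild-type array 1 or 2 that list had 2 rises and 1 fall. The lipase-like gene lips-10 read 7.94, 8.27 and 7.73 in ogt-1 mutants and 8.31, 8.12 and 8.34 in oga-1 mutants, against 7.32, 7.41 and 7.38 in the wild type. Its average rise was 0.75, with 0.61 in ogt-1 and 0.89 in oga-1 mutants, which did not differ past the test (limma adjusted p = 0.15). Its dimmer probe set averaged 0.12 and was not called. In that probe set the mutants differed (limma adjusted p = 0.0083), with -0.09 in ogt-1 and 0.33 in oga-1. The trehalase gene tre-1, for an enzyme that splits the sugar trehalose, rose by 0.42 with the same value in each mutant, and lost the call without any of 5 arrays. The TGF-beta type I receptor gene daf-1, which acts in the dauer decision, fell by 0.43, and the 14-3-3 gene ftt-2, whose product binds the FOXO factor DAF-16, fell by 0.47. Of these falls daf-1 lost its call without wild-type array 1 or 2 and ftt-2 without array 1 or 3. The dimmer daf-1 probe set, at -0.00, was not called. The other ftt-2 probe sets were not alike, with -0.55 and -0.54 in ogt-1 mutants and -0.12 and -0.14 in oga-1 mutants, and only the first was called in the average. The lea-1 gene, for a protein that protects against drying, rose alike by 0.39 by its brightest probe set alone, a call lost without wild-type array 1 or 2. The second brightest rose by 0.53 but not alike, with 0.32 in ogt-1 and 0.74 in oga-1 mutants. The 4 others averaged 0.03 to 0.26 and were not called. They differed by -0.20 to -0.03 in ogt-1 and by 0.25 to 0.68 in oga-1 mutants. In all of these except the brightest the mutants differed (limma adjusted p of 0.004 to 0.025). Of 23 core insulin and FOXO genes only ftt-2 was called, 4.35% against 5.19% of all genes. The lists of DAF-16 target genes had higher shares but ran both ways. Of 25 DAF-16-activated genes 5 rose and 3 fell (32%), 2 of the rises alike. Of 39 DAF-16-repressed genes 5 rose and 2 fell (17.9%), 1 of the falls alike. The mutants differed in 6 and 7 of these called genes. Without wild-type array 2 the lists had 4 rises and 3 falls, and 3 rises and 1 fall.

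Other lists with many called genes were mostly not alike, as were most called genes: of all 889, 211 changed alike (23.7%) and 672 differed between the mutants (75.6%), against 25% of all genes measured. Of 30 PMK-1 pathway and immune effector genes, 14 rose and 0 fell (46.7%), with a median change of 1.21 in ogt-1 and 0.07 in oga-1 mutants. In 13 of the 14 the mutants differed, and F55G11.2 and irg-4 (0.87) were the 2 that rose alike. The gene dod-24 averaged 2.29 higher, as 3.50 in ogt-1 mutants and 1.08 in oga-1 mutants. Without wild-type array 2 the list had 9 rises. Of 220 C-type lectin genes 18 rose (8.18%), and clec-17 (0.65) and clec-41 (0.77) did so alike. The rises of clec-4, clec-67, clec-85 and clec-86 are counted in both the immune and the lectin list. Those of dod-22 and dod-24 are counted in both the immune and the DAF-16-repressed list. Among 38 histone genes 12 rose (31.6%), 2 of them alike, and the mutants differed in 10. Without wild-type array 2 there were 5. The core histone gene his-4 differed by 1.65 in ogt-1 and -0.11 in oga-1 mutants.

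**Figure D4:**
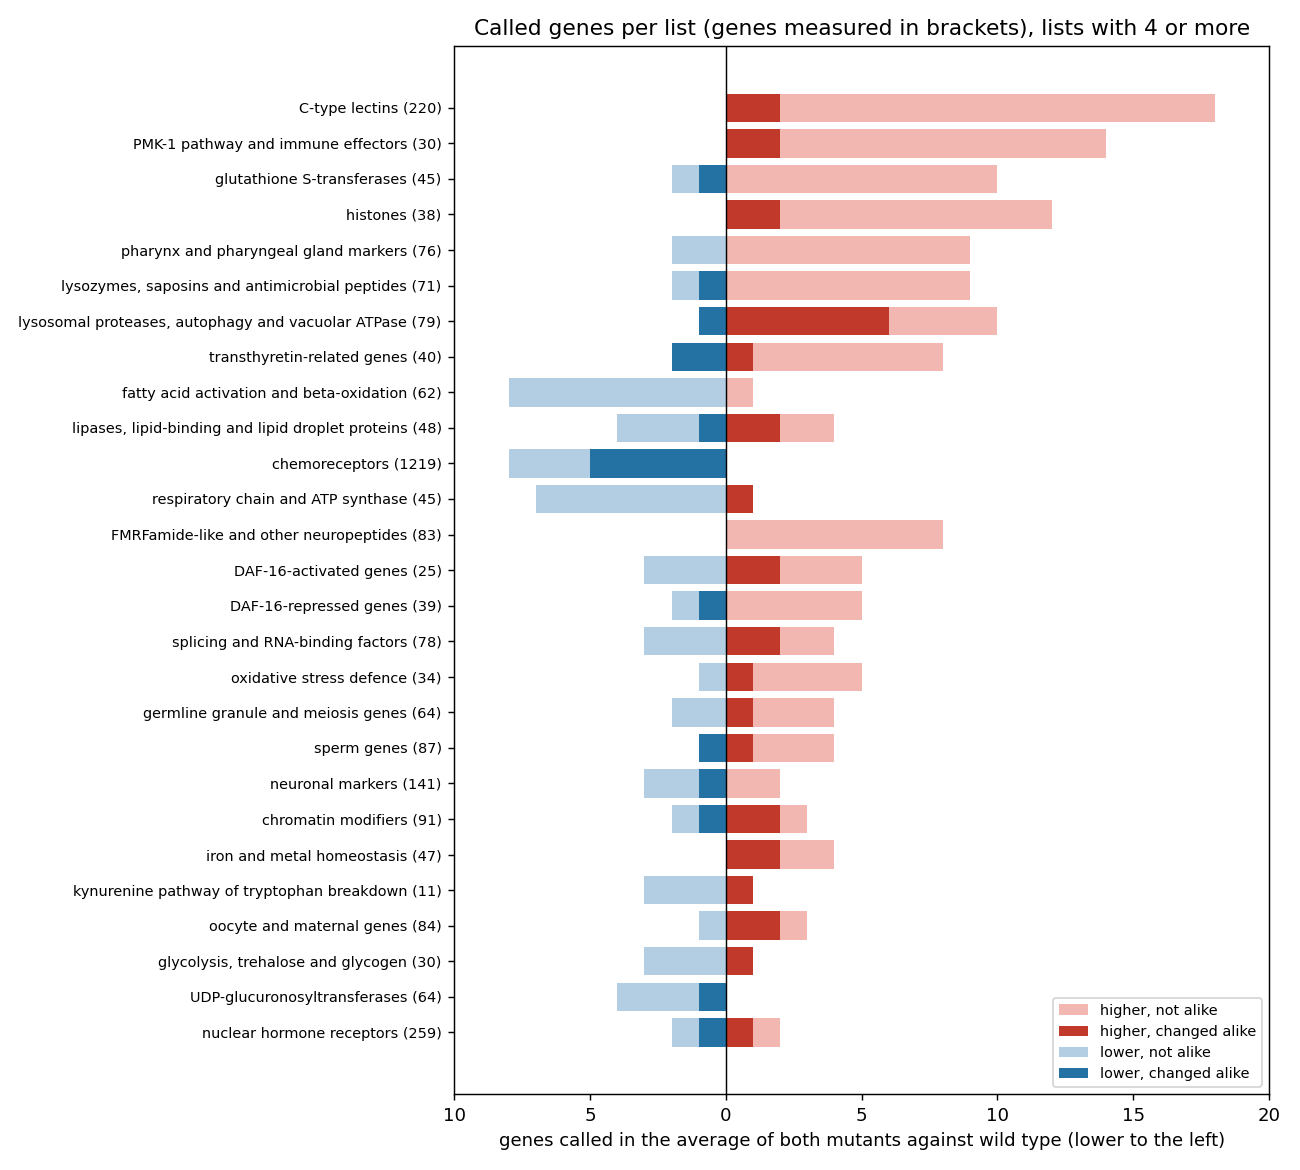
Number of genes called in the average of both mutants in each list with 4 or more, higher to the right and lower to the left, with the genes measured in brackets. Dark bars are genes changed alike. Where a direction has 2 or more calls, they are the larger share among lysosomal rises (6 of 10) and chemoreceptor falls (5 of 8). The same holds for rises of chromatin modifiers (2 of 3) and of oocyte and maternal genes (2 of 3), and for transthyretin-related falls (2 of 2). They are a small share in the C-type lectin (2 of 18) and immune (2 of 14) lists.

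Metabolic lists are read against all genes, of which 3.35% rose and 1.84% fell. Of 62 genes of fatty acid activation and beta-oxidation, 8 fell and 1 rose (14.5%), none alike, and the mutants differed in all 9. The enoyl-CoA hydratase gene ech-6 differed by -1.03 in ogt-1 and -0.18 in oga-1 mutants. Of 45 respiratory chain and ATP synthase genes 7 fell and 1, atp-3, rose alike by 0.40 (17.8% in all), and the atp-3 call was lost without any of 6 arrays. Without wild-type array 1 or 2 the fatty acid list had 2 falls, and the respiratory list had 3 without array 1 and 1 without array 2. Of 45 glutathione S-transferase genes, which conjugate toxic compounds, 10 rose and 2 fell (26.7%), with no fall left without any 1 of the wild-type arrays, and gst-38 differed by 2.76 in ogt-1 and 0.90 in oga-1 mutants.

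The largest average rise of a gene after cpr-4 was not alike. T27E7.1 read 11.16, 10.99 and 10.97 in ogt-1 mutants and 5.58, 5.68 and 6.23 in oga-1 mutants, against 5.41, 6.01 and 6.09 in the wild type. The oga-1 and wild-type arrays overlapped, and the average of 2.60 stood for a change of 5.20 in ogt-1 and -0.01 in oga-1 mutants. C23G10.11 (average 2.32) and T26E4.10 (2.32) had oga-1 changes of -0.04 and -0.13, and the first lost its call without wild-type array 1 or 2. Among falls, pud-3 averaged -1.37 with -3.15 in ogt-1 and 0.41 in oga-1 mutants, and lost its call without wild-type array 1 or 3. The astacin protease gene dpy-31, for collagen processing, averaged -1.31 with -2.14 and -0.47, and its other probe sets differed by -0.29 and -0.38 and were not called. Y65B4BR.1, Y38E10A.14 and H11L12.1 had values of one sign in both mutants but unequal, with averages of 2.36, -1.60 and -1.35.

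Markers of tissues were called at shares of 0% to 14.5%, against 5.19% of all genes. Of 31 intestine markers 2 rose and 1 fell (9.68%, 1 alike), of 44 muscle markers 1 rose (2.27%, 0 alike), and of 141 neuronal markers 2 rose and 3 fell (3.55%, 1 alike), with no neuronal call left without wild-type array 1 or 2. Of 76 pharynx markers 9 rose and 2 fell (14.5%), none alike. The intestine rises, asp-3 and cpr-1, are also counted in the lysosomal list, and the muscle rise, tnc-2, also among pharynx markers. Sperm genes had 4 rises and 1 fall of 87 (5.75%, 2 alike), oocyte and maternal genes 3 and 1 of 84 (4.76%, 2 alike), and germline granule and meiosis genes 4 and 2 of 64 (9.38%, 1 alike). Without wild-type array 1 or 2 there were 4 rises left among pharynx markers, and 1 each in the sperm, oocyte and germline lists. Limma called 0 of 146 cuticle collagens (11 higher and 8 lower at an unadjusted p under 0.05), 0 of 33 male markers (0 and 2), 0 of 39 DNA replication genes (2 and 1) and 0 of 5 vitellogenins (0 and 1).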

How the data were processed

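The authors deposited log2 probe set signals of 9 arrays. MAS5, RMA and Partek are named, without roles, by the submitters' processing notes, so the tool behind the values is not given in the sources here. Array means agreed at 5.91. The 77 control probe sets were left out, and 22548 were tested without a filter. Of all probe sets 20766 had 1 gene in the annotation, 887 had several and 895 had none. Probe sets ending in _s_at or _x_at can bind several transcripts, as for 7 of the 24 largest shared changes. The fit was limma 3.58.1 (R 4.3.3), strain as the only term, 6 residual degrees of freedom and Benjamini-Hochberg adjustment over all probe sets. Control measures were compared with SciPy 1.17.1 in Python 3.11.15. The genes, the 55 lists and the rules were chosen with earlier results of these data known. Some lists share genes, so their counts are not independent. Named by rule were the targets, the 12 largest shared rises and falls with all mutant arrays outside the wild type, changes called in both mutants, the largest unequal averages and up to 2 alike members per list and direction. Other list members given as examples, such as dod-24, gst-38, his-4, ech-6 and the remaining proteases, lay outside these rules. They were named after their values were seen. Equal replicate numbers correlated at -0.173 to 0.244 (9 pairs), so arrays were taken as unpaired.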

Additional observations from a re-analysis of the deposited data

Results flagged for a closer look

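Several changes differed between the mutants by the contrast of ogt-1 minus oga-1 (limma adjusted p under 0.05), although the genes were named for an average of both. In the average 819 called probe sets did so. Of rises in both mutants, the log2 difference was 1.53 for cpr-4, 1.21 for F55G11.2, 0.39 for cdr-1, 0.79 for F01D5.1, 0.50 for C14C6.5, 0.66 for alkb-1, 0.57 for Y105C5B.15, 0.38 for asp-3 and 0.47 for ddx-10. It was 1.11 for mbug-1, 1.52 for F01D5.5 and 1.70 for clec-76. Of falls, it was -0.44 for ceh-20, -0.33 for tin-10, -0.45 for oat-1 and -0.42 for cyp-34A8. The targeted gene ogt-1 differed by -0.90 in its brighter probe set.

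Among averages carried by the ogt-1 mutants, the difference was 5.21 for T27E7.1, 4.89 for T26E4.10, 4.72 for C23G10.11 and 2.12 for Y65B4BR.1. It was -3.56 for pud-3, -2.11 for Y38E10A.14, -1.66 for pmp-5, -1.66 for dpy-31 and -1.37 for H11L12.1.

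The 18 hybridisation control probe sets, which read RNA added to every sample, averaged 0.157 higher in mutants than in the wild type (9.26 ± 0.17, SD, n = 6, and 9.11 ± 0.09, SD, n = 3; exact permutation test, two-sided p = 0.143).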

How the results depend on the processing

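Counts are given as probe sets higher, lower, alike, alike with all mutant arrays outside the wild type, and differing between the mutants; the reported ones are 700, 388, 263, 233 and 819. Array weights gave 1294, 936, 686, 408 and 1409. With the 6 mutant arrays as 1 group, whose spread then holds the differences between the mutants, they were 3, 3, 6 and 6; cpr-4, cdr-1, ctsa-4.1, C55C3.3, scrm-4 and the unnamed probe set were left. Without the 3 arrays of SD above 1.8 they were 301, 241, 151, 151 and 325, and with a 1.5-fold minimum 386, 99, 113, 98 and 389. The SD of each array as a covariate gave 422 higher and 128 alike and outside. At an adjusted p under 0.1 there were 719 lower, 475 alike, 358 alike and outside and 1292 differing. Quantile normalization gave 703 lower and median centring 214, so the share of higher calls was 52.2% and 74.2%, against 64.3%. The top quartile of level gave 175 alike and 145 outside. A stricter limit for alike gave 109 and 103, a looser one 528 and 383. Leaving out each array gave 272 to 869 higher, 94 to 380 lower, 89 to 295 alike, 89 to 284 alike and outside and 300 to 928 differing, lowest without wild-type array 2. The replicate block gave 784, 424, 291, 236 and 910. The cause of these shifts was not tested. Of 1786 values of the 83 named genes, 1404 kept direction and call, 382 lost the call and 0 reversed. Of the 24 largest shared changes 4 kept the call under every alternative in which they were tested: cpr-4, cdr-1, C55C3.3 and scrm-4. The first of these and cdr-1 were tested in 22, and C55C3.3 and scrm-4 in 21. Array number limits precision: the 95% interval of the difference between the mutants had a median half-width of 0.26 over the genes changed alike.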

Other observations

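The 186 genes changed alike with all mutant arrays outside the wild type lay on all 6 chromosomes but not with the same balance of directions. Together 113 were higher and 73 lower, 1.09% of all genes. Chromosome I held 27 that were higher and 2 that were lower (1.17% of its 2469 genes), and the X chromosome 7 and 21 (1.19% of 2351). Chromosomes II, III, IV and V held 21 and 12 (1.1%), 13 and 9 (0.977%), 22 and 17 (1.46%), and 23 and 12 (0.811%). Over all genes called in the average, 574 higher and 315 lower, the counts were 82 higher and 39 lower on chromosome I and 82 and 54 on X. On chromosomes II, III, IV and V they were 83 and 53, 64 and 52, 122 and 59, and 141 and 58. There were 2 pairs of neighbouring genes: Y57A10A.24 (-0.57) fell beside tag-276 (0.73), which rose, and mul-1 (0.84) and F49F1.7 (0.54) both rose. These counts were drawn up after the values were seen and were not tested.

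Chemoreceptor genes, for receptors of sensory neurons, gave few calls: of 1219, limma called 8 lower (5 alike) and 0 higher, or 0.656%, against 5.19% of all genes called and 1.84% lower. At an unadjusted p under 0.05 there were 103 lower (8.45%, against 9.47% of all genes) and 4 higher (0.328%, against 9.14%), and the median change was -0.08 against -0.02 over all genes. The median was -0.03 in ogt-1 and -0.12 in oga-1 mutants. These were dim genes: the list averaged 4.75 to 4.99 by array, below the array medians of 5.21 to 5.3. The SD over probe sets was highest in oga-1 arrays 1 and 3 (1.853 and 1.839), and its part in this was not tested. Without wild-type array 1 or 2 there was 1 call. Of 40 transthyretin-related genes 8 rose and 2 fell (25%, against 5.19% of all genes), and both falls, ttr-31 and ttr-37 (-0.49), were alike, while ttr-50 (0.48) rose alike. Without wild-type array 2 there were 3 rises, and without array 1 or 2 no fall; the ttr-50 call was lost without any 1 of the wild-type arrays.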
